A study of Mus musculus with 4 samples.

Results

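TRP1high and TRP1low are T cell receptors (TCRs) that recognise tyrosinase-related protein 1 (TRP1), a protein of pigment cells and an antigen of melanoma, and the comparison described here set T cells with one receptor against T cells with the other after both had met the same peptide, M9. Mouse T cells carrying TRP1high or TRP1low were co-cultured for 48 h with B cells loaded with the M9 peptide, were recovered by cell sorting, and their total RNA was sequenced. The study also held both receptors with a second peptide, K8, under the same conditions, so the M9 pair is 2 of its 4 libraries. Its title concerns how altered binding of tumor peptides to MHC class I changes the effector response of CD8 T cells. All 4 groups share the B cell co-culture, and no unstimulated cells were analysed here. The age, strain, source and number of the mice are not stated in the labels used here, so a pooled origin of either library can be neither stated nor denied.

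Each side of the comparison was 1 library. No p-value can be given, and every difference below is between 2 libraries, in which receptor, mouse, culture and library preparation cannot be told apart. RNA was taken from whole sorted populations, so fewer cells of a type and less RNA per cell cannot be told apart either. The unit was the deposited log2 of a normalized count plus 1. Of 16338 rows in the files, 10236 reached 100 normalized counts in TRP1high or in TRP1low with M9. Of these, 15 variable, diversity or joining segments of receptor or immunoglobulin genes and 449 pseudogenes were set aside, and the 9772 that were left were ranked by TRP1high minus TRP1low. Genes for receptor constant regions were kept. At the level limit, Homer3 (100.5 normalized counts) and Dnal1 (100.1) were just inside, and Tigd5 (99.9) and Rpgrip1 (99.8) just outside.

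A CD8 T cell reads a short peptide held by an MHC class I molecule on another cell. Its receptor passes the signal through the CD3 chains and the kinases Lck and Zap70, and immediate response genes of the Nr4a, Egr, Fos and Dusp families follow within hours. Over the next days the cell divides, raises glycolysis, and makes granzymes, perforin and cytokines such as interferon gamma. Interferons made by T cells or by their neighbours act on the same culture through STAT proteins and switch on interferon-stimulated genes, a program of antiviral proteins and antigen presentation. TRP1high was named for a higher and TRP1low for a lower affinity for the TRP1 peptide.

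TRP1high with M9 held an estimated 41.5 M reads and TRP1low with M9 40.3 M, and the K8 libraries held 40.5 M (TRP1high) and 29.6 M (TRP1low). At that depth 1 read was worth 0.989 normalized counts in TRP1high and 1.05 in TRP1low with M9. All 12 markers of CD8 T cells passed 100 normalized counts, and Cd8a stood at 28452 in TRP1high and 28938 in TRP1low. Markers of the B cells that had presented the peptide were few: 6 of 23 were ranked, Pax5 was 0 in TRP1high and 17.5 in TRP1low, and the summed level over all 23 was 2153 and 2131. For CD4 T cells the summed level was 119 and 137, with Cd4 itself at 0 in TRP1high and 18.3 in TRP1low, and for myeloid or dendritic cells it was 3419 and 3090, most of it Cst3.

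With M9, 793 of 9772 ranked genes (8.12%) differed at least 2-fold between the receptors. More of them were higher in TRP1high, 523 (5.35% of the ranked genes), than lower, 270 (2.76%). Most genes lay close together: the median difference was -0.06 on the log2 scale, 71.4% of genes were within 0.5 of 0, and the central 95% ran from -1.03 to 1.37. A difference of at least 4-fold was seen in 130 genes, 87 higher and 43 lower. At the 2-fold limit, Ly6e (1.0013) and Tnip3 (-1.0005) were just inside and Clip2 (0.9999) and Adap1 (-0.9984) just outside. Among the 745 ranked genes that reached 10000 normalized counts in 1 of these libraries, 22 were 2-fold higher and 9 lower.

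**Figure D1:**
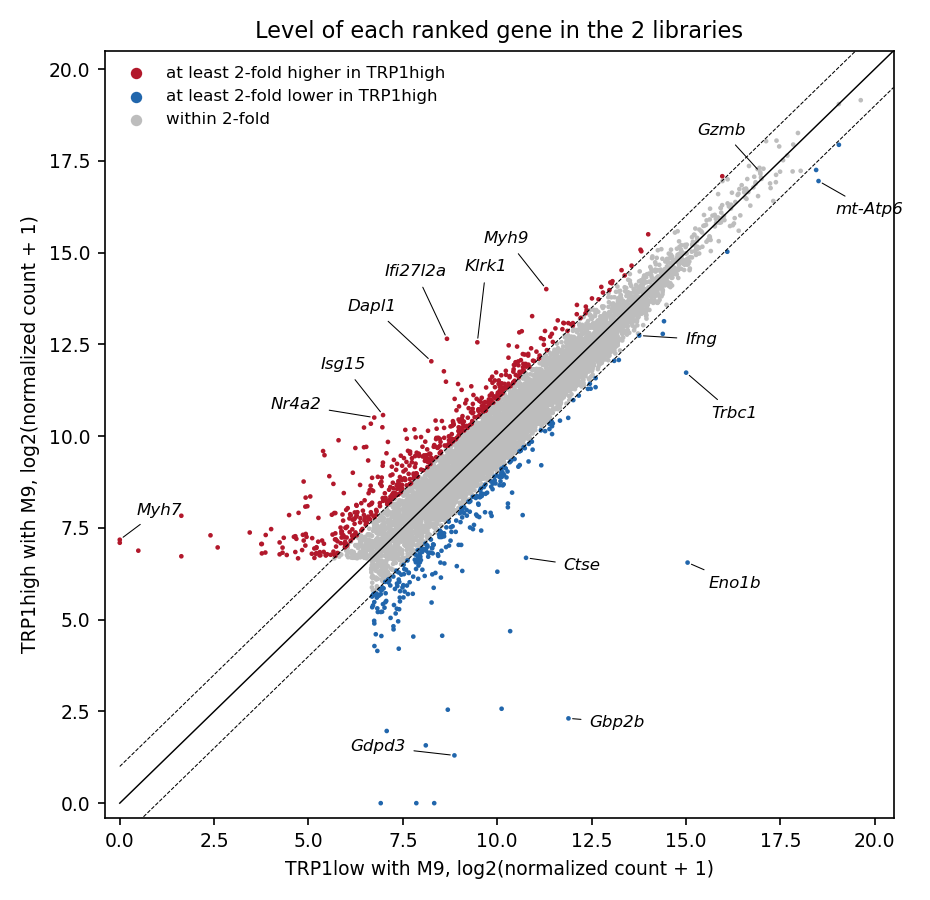
Level of each of the 9772 ranked genes in TRP1low (x axis) and TRP1high (y axis) with M9, as log2(normalized count + 1). The solid line marks equal levels and the dashed lines 2-fold; 523 genes lie on or above the upper dashed line (red) and 270 on or below the lower one (blue), and the points at 0 on an axis had no reads in that library.

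Interferon-stimulated genes gave the highest share of members 2-fold apart among those of the 21 lists with more than 5 ranked members. Of 45 listed genes, all in the files, 35 were ranked: 17 of these were at least 2-fold higher in TRP1high, 0 were lower and 18 were within 2-fold, against 5.35% of all ranked genes higher. The median difference of the 35 was 0.86, beside -0.06 over all ranked genes, and 30 of 35 were above 0. Some of the higher members, Oas1a and Ifit1 among them, reached 100 normalized counts only in TRP1high. When the mean of the 2 libraries had to reach 100, 13 of 31 members were higher and 0 lower, with a median of 0.84. Of all genes, 459 of 9587 were higher under that limit. Antiviral effectors and sensors stood on both sides of the 2-fold limit, as did GTPases of the guanylate-binding family: Ifit1 and Gbp7 were among the higher members, and Ifit2, Bst2 and Gbp4 were within 2-fold. The summed levels of B cell markers (2153 and 2131) and of myeloid or dendritic markers (3419 and 3090) differed little between the libraries, and their part in the result was not tested.

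Many such genes carry an interferon-stimulated response element, which was searched for here as GAAA, any 2 bases and a second GAAA, on both strands, in a window from 250 bases before to 50 bases after the start of each gene (RefSeq sequences, GRCm38.p6). Over all 27025 genes with a window 3.99% held it, and over ranked genes 3.86%. Among the 17 members higher in TRP1high, 13 had a window and 9 of these held the motif (69.2%), while among the 18 members within 2-fold 16 had a window and 7 held it (43.8%). The 60-base stretches shown next are only of members that held the motif, 5 that were higher and 3 that were within 2-fold. They run 5′ to 3′ on the gene's strand, all before its start, with the motif in capitals. Cmpk2, Xaf1 and Irf7, also among the higher members, had no match in their windows. Where motifs overlap, the capitals run through all of them, and on the other strand the motif reads TTTC, any 2 bases and TTTC.
Isg15, chr4:156200857-156200916, minus strand: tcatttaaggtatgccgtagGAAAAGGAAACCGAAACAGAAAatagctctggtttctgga
Oas1a, chr5:120907526-120907585, minus strand: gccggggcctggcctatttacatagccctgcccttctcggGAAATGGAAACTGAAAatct
Oas3, chr5:120777695-120777754, minus strand: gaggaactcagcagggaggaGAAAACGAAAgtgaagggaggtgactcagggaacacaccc
Ifit1, chr19:34640765-34640824, plus strand: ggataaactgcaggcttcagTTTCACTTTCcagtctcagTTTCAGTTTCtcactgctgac
Rsad2, chr12:26456533-26456592, minus strand: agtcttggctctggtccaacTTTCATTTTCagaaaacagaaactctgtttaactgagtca
Bst2, chr8:71537563-71537622, minus strand: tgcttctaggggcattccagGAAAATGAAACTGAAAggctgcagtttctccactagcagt
Igtp, chr11:58199496-58199555, plus strand: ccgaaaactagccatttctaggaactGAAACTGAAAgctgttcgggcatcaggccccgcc
B2m, chr2:122147528-122147587, plus strand: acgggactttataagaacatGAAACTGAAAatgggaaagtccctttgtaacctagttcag
The Isg15 stretch held 3 overlapping copies and those of Oas1a and Ifit1 2, but Bst2 also held 2 and was within 2-fold. A second pattern, the gamma-activated site TTCNNNGAA, lay in 9.55% of all windows, in 3 of the 13 higher members and in 6 of the 16 within 2-fold. These 2 patterns can share letters, and a match is a description of the letters and not a measured binding site.

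Isg15, a ubiquitin-like protein that is joined to other proteins after interferon, had 1523 normalized counts in TRP1high and 125 in TRP1low with M9. That was 12.2-fold higher in TRP1high (95% counting interval 10.1 to 14.8), and Usp18, the protease that takes Isg15 off its targets and damps interferon signalling, was 13.7-fold higher (1203 against 87.7). Cmpk2, a mitochondrial nucleotide kinase, was the member furthest apart, at 771 in TRP1high and 40.8 in TRP1low, 18.9-fold (13.7 to 26.7). Ifi27l2a, a small mitochondrial protein, stood at 6436 and 406, 15.9-fold (14.3 to 17.6). In each of these genes the K8 pair also had TRP1high above TRP1low, by 1.01 (Isg15), 1.89 (Usp18), 2.56 (Cmpk2) and 1.81 (Ifi27l2a) on the log2 scale.

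Sensors and effectors of the RNA response were higher as well. Oas3, which makes the 2′-5′ oligoadenylate that activates ribonuclease L, had 3481 normalized counts in TRP1high and 384 in TRP1low (9.08-fold, 8.14 to 10.1), and its relative Oas1a 111 and 12.6. Ifit1, which binds foreign RNA ends, stood at 137 and 17.8, and Rsad2 (viperin) at 158 and 27.9. Zbp1, a sensor of Z-form nucleic acid that can start necroptosis, was 3.40-fold higher (3411 against 1003). Ddx58, which encodes the RNA sensor RIG-I, was 2.31-fold higher (407 against 176), and Xaf1, an antagonist of inhibitors of apoptosis, was 9.81-fold higher (1209 against 123). In the K8 pair Ddx58 differed the other way, by -1.12, and the difference between the pairs was not tested.

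Among the transcription factors of the response, Irf7, which amplifies type I interferon production, was 7.19-fold higher in TRP1high with M9 (512 against 71.2 normalized counts, 5.56 to 9.38). Irf9, a DNA-binding subunit of the interferon-activated factor ISGF3, was 1.82-fold higher (1435 against 788) and so within 2-fold. Irf1, a target of interferon gamma, was at 2700 and 3263, a difference of -0.27. Irf7 was lower in TRP1high in the K8 pair (91.1 against 271, a difference of -1.57), and Irf9 as well (-0.81).

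The members of antigen presentation lay near each other in the libraries. B2m, the light chain of MHC class I, differed by 0.56, the heavy chain gene H2-K1 by 0.25 and the immunoproteasome subunit Psmb8 by 0.05. The GTPases Igtp (16597 against 17393) and Ifi47 (12205 against 13348) differed by -0.07 and -0.13. The listed GTPases of the guanylate-binding family ran from Gbp4 at -0.23 to Gbp7 at 1.10. Between them lay Gbp3 (0.09), Gbp5 (0.48), Gbp2 (0.84) and Gbp6 (1.01). Gbp6 fell below 2-fold (0.997) when 30 was added to each count in place of 1. Gbp2b, of the same family but not on the list, was lower in TRP1high by far more and is described below. Interferon gamma itself, as mRNA, was the lower way round: Ifng had 6839 normalized counts in TRP1high and 13898 in TRP1low.

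**Figure D2:**
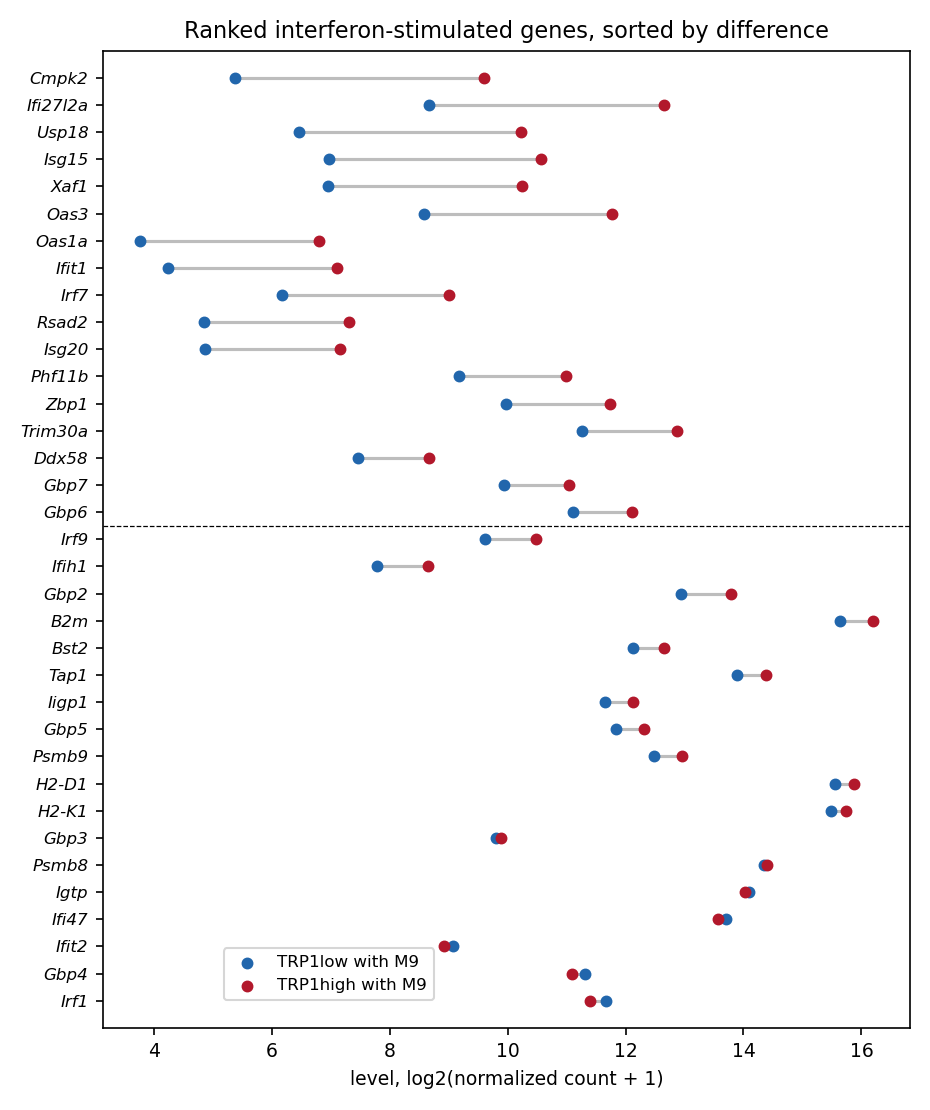
Levels of the 35 ranked interferon-stimulated genes in TRP1low (blue) and TRP1high (red) with M9, log2(normalized count + 1), sorted by their difference. The 17 genes above the dashed line were at least 2-fold higher in TRP1high; the 18 below it were within 2-fold, and Irf1, at the bottom, differed by -0.27.

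Another 3 families were listed only after the values had been seen, and Phf11b and Trim30a in them are also among the 17 interferon-stimulated genes counted above. Of 10 genes of the IFI200 family in the files 9 were ranked. These bind DNA and neighbour each other on chromosome 1. With M9, 7 of the 9 were at least 2-fold higher in TRP1high and 1, Aim2, was lower, against 5.35% and 2.76% of all ranked genes. Ifi206, Ifi208, Ifi211, Ifi213 and Ifi214 reached 100 normalized counts only in TRP1high, so the level limit kept them through the library where they were high. Ifi206 had 1293 normalized counts in TRP1high and 99.6 in TRP1low (13-fold, 10.5 to 16.2), Ifi211 320 and 29.4, and Ifi209 1177 and 335. Aim2, the sensor of cytosolic DNA that builds an inflammasome, stood at 390 and 801, a difference of -1.03 that moved to -0.98 when the differences were centred on their median. With K8 the median of the 9 genes was -1.12, against 1.81 with M9, and Ifi206, Ifi208, Ifi209, Ifi211, Ifi213 and Ifi214 were all lower in TRP1high there. These genes are close copies of each other, so reads may have been shared among them.

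Of 10 ranked PHF11 and Schlafen genes, also interferon-responsive, 7 were 2-fold higher in TRP1high and 0 lower. Over all ranked genes 5.35% were higher and 2.76% lower. Phf11a, Phf11c and Phf11d reached the level limit only in TRP1high, so that limit kept them through the library where they were high. Phf11b was at 2025 and 581 (3.49-fold) and Slfn8 at 740 and 133 (5.56-fold). Of the TRIM30 family, ubiquitin ligase-like antiviral proteins, the 2 ranked genes were higher: Trim30a at 7461 against 2461 (3.03-fold, 2.89 to 3.18) and Trim30d at 835 against 91.4 (9.14-fold). Trim30d, too, reached the level limit only in TRP1high. In the K8 pair Trim30a differed by -0.39 and Trim30d by 0.65.

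Killer lectin-like receptors had the highest list median. These receptors, first known from natural killer cells, are displayed by activated CD8 T cells and read MHC class I-like ligands. Of 24 listed genes 14 were in the files and 5 ranked, and 4 of the 5 were at least 2-fold higher in TRP1high (against 5.35% of all ranked genes), 0 lower, with a median of 3.04. With 30 added to each count the median was 1.93, and over the 12 members above 0 in either library, with no minimum level, it was 1.85, with 7 higher and 3 lower. When the mean of the 2 libraries had to reach 100, 3 of 4 were higher and the median was 2.31. Klrk1, the activating receptor NKG2D, had 6021 normalized counts in TRP1high and 710 in TRP1low with M9, 8.48-fold higher (7.83 to 9.19). Klrd1, the CD94 chain, stood at 1358 and 453 (3.0-fold), and its partner Klrc1, the inhibitory NKG2A chain, at 415 and 49.6 (8.37-fold). Klri2, a receptor of natural killer and T cells, stood at 133 and 12.6.

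Hcst, the DAP10 adaptor that carries the NKG2D signal, was at 296 and 268, a ratio of 1.10 whose counting interval (0.929 to 1.31) holds 1. With K8 the Klrk1 difference was as large (1349 against 148, 3.18 on the log2 scale). Klrd1 and Klrc1 differed by 0.12 and 0.93 there, both within 2-fold. The 6 markers of gamma delta T or natural killer cells in the files had summed levels of 879 and 831 with M9 but differed in opposite directions. Tcrg-C4 (227 in TRP1high against 2.10 in TRP1low), Tcrg-C1 (105 against 2.10) and Tcrg-C2 (65.3 against 3.15) were higher in TRP1high. Trdc (464 against 795) and Sox13 (18.7 against 27.6) were lower, and Klrb1c was at 0 and 1.11. The part of such cells in the result was not tested. The 9 unranked members lay under 100 normalized counts in both libraries, 4 of the 14 at 0 in TRP1high and 3 at 0 in TRP1low.

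Of 46 listed genes induced by TCR signalling 43 were ranked, with 7 at least 2-fold higher in TRP1high (16.3%, against 5.35% of all ranked genes), 0 lower (against 2.76%) and 35 above 0, and a median of 0.50. With K8 their median was 0.04, with 11 higher and 7 lower. Nr4a2, an orphan nuclear receptor induced by calcium and NFAT, had 1453 normalized counts in TRP1high and 106 in TRP1low with M9, 13.7-fold (11.2 to 17.0), and differed by 3.53 with K8. Its relatives differed less: Nr4a1 by 0.53 (5904 against 4090) and Nr4a3 by 0.44 (20389 against 15033). Fosl2, a subunit of the AP-1 factor, was 3.37-fold higher, and Cd5, a surface brake on receptor signalling whose level follows signal strength, was 2.93-fold higher (9113 against 3112).

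Other members past 2-fold were negative regulators. Dusp4, a phosphatase of MAP kinases, stood at 4134 and 1432 (2.89-fold), Rgs1, which shuts off G protein signals, at 4776 and 1694 (2.82-fold), and Rgs2 at 627 and 285 (2.20-fold). Spry1, an inhibitor of Ras signalling, was at 1654 and 824, a difference of 1.004 that moved to 0.996 with 10 added to each count. Members close to each other in the libraries were Irf4 (24319 against 25719, -0.08), a factor that scales with receptor signal strength, Dusp1 (0.06) and Tnfaip3 (-0.10). Below 0 were Gadd45b (-0.84), Irf8 (-0.61) and Egr2 (-0.56), while Egr1 differed by 0.76 and Nfatc1 by 0.84.

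The receptor complex and its signalling chain were mostly level. Of 39 ranked genes 2 were 2-fold higher (5.13%, against 5.35% of all ranked genes) and 2 lower (against 2.76%), with a median of 0.14. Cd3e, a CD3 chain, stood at 10419 in TRP1high and 5179 in TRP1low (2.01-fold, 1.94 to 2.08). Lower in TRP1high were Trat1, a transmembrane adaptor (60.4 against 181), and Themis, a regulator of T cell selection and signalling (4242 against 8772, a difference of -1.05 that centring moved to -0.99). The coreceptor chain Cd8b1 differed by -0.04 and the kinase Fyn by 0.04.

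Most effector products were within 2-fold, as were most ranked genes, of which 8.12% were 2-fold apart. None of the 14 ranked cytotoxic granule genes was 2-fold apart: Gzmb, the protease granzyme B, stood at 149629 in TRP1high and 128160 in TRP1low (1.17-fold), and Prf1, perforin, at 5066 and 3007 (1.69-fold). With K8 the Gzmb difference was 2.22 on the log2 scale. Among 10 ranked effector cytokines 1 was higher and 1 lower (against 5.35% and 2.76% of all ranked genes). Ifng was 2.03-fold lower in TRP1high with M9 (1.97 to 2.09), a difference of -1.02. Centring on the median moved it to -0.97 and a correction for GC content to -0.84, so its place past 2-fold rests on the scaling. In the K8 pair it was lower by more, at 829 in TRP1high and 7610 in TRP1low.

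Lymphotoxin (Lta, -0.92) and Tnf (276 against 455, -0.72) were also lower in TRP1high with M9, within 2-fold, and Lif (0.14), Osm (0.13) and Il16 (0.25) were level. Il3, a growth factor for myeloid cells, was higher at 166 against 67.1, 2.48-fold (1.85 to 3.36). Il2, the T cell growth factor, was near the level limit at 156 and 96.5. Of 4 ranked chemokines Ccl5 was 2.93-fold higher (102 against 34.7), and Ccl3 (-0.52), Ccl4 (-0.58) and Xcl1 (-0.26) were within 2-fold. Ccl5 reached 100 normalized counts only in TRP1high. When the mean of the 2 libraries had to reach 100, 3 chemokines were left, with 0 higher and 0 lower. Among 8 ranked ligands of the TNF superfamily and Fas, Tnfsf8, the CD30 ligand, was 2.87-fold higher (1735 against 605) and Fasl, the death ligand, differed by 0.58. For both lists the shares over all ranked genes were 5.35% higher and 2.76% lower.

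Of 25 ranked genes of naive and memory T cells 5 were 2-fold higher in TRP1high (against 5.35% of all ranked genes) and 0 lower, with a median of 0.44. Dapl1, a marker of naive-like CD8 T cells, had 4207 normalized counts in TRP1high and 304 in TRP1low with M9, 13.8-fold (12.3 to 15.6). Igfbp4, a binding protein of insulin-like growth factors, stood at 917 and 137 (6.71-fold), Il6ra, an interleukin 6 receptor chain, at 348 and 60.2 (5.79-fold), and Ly6c2 at 763 and 206 (3.71-fold). Ly6a (Sca-1), which is also induced by interferon, was 2.34-fold higher.

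Other genes of naive cells lay closer to 0. Ccr7, which brings T cells into lymph nodes, differed by 0.63 and Lef1 by 0.96, which reached 1.02 after centring. Tcf7, which encodes TCF1, differed by -0.26, S1pr1, the exit receptor of lymph nodes, by -0.08, and Klf3 by 0.02.

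Of 18 ranked chemokine receptors and adhesion molecules 0 were 2-fold higher (against 5.35% of all ranked genes) and 3 lower (against 2.76%), or 2 lower after centring, with a median of -0.12. Ccr4, a chemokine receptor, had 502 normalized counts in TRP1high and 1099 in TRP1low with M9, 2.19-fold lower (1.96 to 2.44), and Gpr183, a receptor of oxysterols, was 2.08-fold lower, the latter within 2-fold after centring (-0.99). Cxcr3 (0.03), Cd9 (-0.00) and Cxcr4 (-0.11) were level, and the integrin chain Itgal differed by 0.17.

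Among 17 ranked lineage transcription factors 3 were higher and 3 lower, against 5.35% and 2.76% of all ranked genes. Zeb2, a repressor that drives terminal effector differentiation, stood at 272 in TRP1high and 30.3 in TRP1low (8.95-fold, 6.07 to 13.6), Runx3, the factor of the CD8 lineage, at 2585 and 1210 (2.14-fold), and Ikzf4, of the Ikaros family, at 138 and 61.7. Lower were Id2, an inhibitor of E proteins in effector cells (279 against 726, 2.60-fold), Eomes, a T-box factor of effector and memory cells (792 against 1960, 2.47-fold), and Ikzf2, another Ikaros family gene (133 against 273, -1.03, or -0.97 after centring). The related T-box factor Tbx21 was level at 4008 and 3847, and so were Id3 (-0.08) and Bach2 (0.16). With the GC correction Runx3 came to 0.999.

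Most surface receptors of costimulation and inhibition were within 2-fold, as were most ranked genes. The shares over all ranked genes were 5.35% higher and 2.76% lower. Of 15 ranked costimulatory receptors 2 were higher, both of the TNF receptor superfamily: Tnfrsf4 (OX40) at 17144 against 6923 (2.48-fold) and Tnfrsf9 (4-1BB) at 18658 against 8174 (2.28-fold). Cd28 (-0.16), Cd27 (0.04) and Cd44 (0.02) were level. Of 14 ranked inhibitory receptors and exhaustion-associated genes 1, Lilrb4a, was higher (218 against 37.4), and Pdcd1 (0.64), Tigit (0.74), Tox (0.64), Lag3 (0.35) and Ctla4 (0.37) were within 2-fold. Among 30 ranked genes of cytokine receptors and the STAT5 pathway, Ifngr2, a chain of the interferon gamma receptor, was 2.40-fold higher (301 against 125), and Il2ra (0.35) and Il2rb (-0.04) were within 2-fold.

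Metabolic and growth genes lay close with M9. The median difference of 28 ranked glycolysis and hypoxia-responsive genes was 0.23, with 3 higher and 0 lower (against 5.35% and 2.76% of all ranked genes). Aldoc, an aldolase, stood at 584 and 124 (4.71-fold), Hif1a, the oxygen-regulated factor, at 16144 and 8033 (2.01-fold), and Ldha, lactate dehydrogenase, at 187809 and 194933 (-0.05). None of 24 cholesterol and lipid synthesis genes was 2-fold apart, and their median was 0.15. In the K8 pair the medians of these lists were 0.79 and 0.77, and 9 and 7 of their members were 2-fold higher.

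Of 25 ranked genes of amino acid metabolism and the integrated stress response 3 were higher (Atf3, 2.99-fold, Ddit3, 2.35-fold, and the asparagine synthetase gene Asns, 2.05-fold) and 1, the proline synthesis gene Pycr1, was lower (255 against 538). All ranked genes together had 5.35% higher and 2.76% lower. Oxidative phosphorylation genes of the nucleus (25 ranked) and p53 and apoptosis genes (23 ranked) had 0 members 2-fold apart in either direction, with medians of -0.06 and -0.01. Among 37 cell cycle genes the median was -0.20 and 27 were below 0, but Mki67, the proliferation antigen Ki-67, was 4.50-fold higher (5686 against 1263). Pcna, the sliding clamp of replication, differed by -0.21, Mcm2, of the replicative helicase, by -0.49 and Rrm2 by -0.02. Of 26 ribosome biogenesis genes 1, Nolc1, was higher (2.37-fold), and the nucleolar protein gene Npm1 differed by -0.27.

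**Figure D3:**
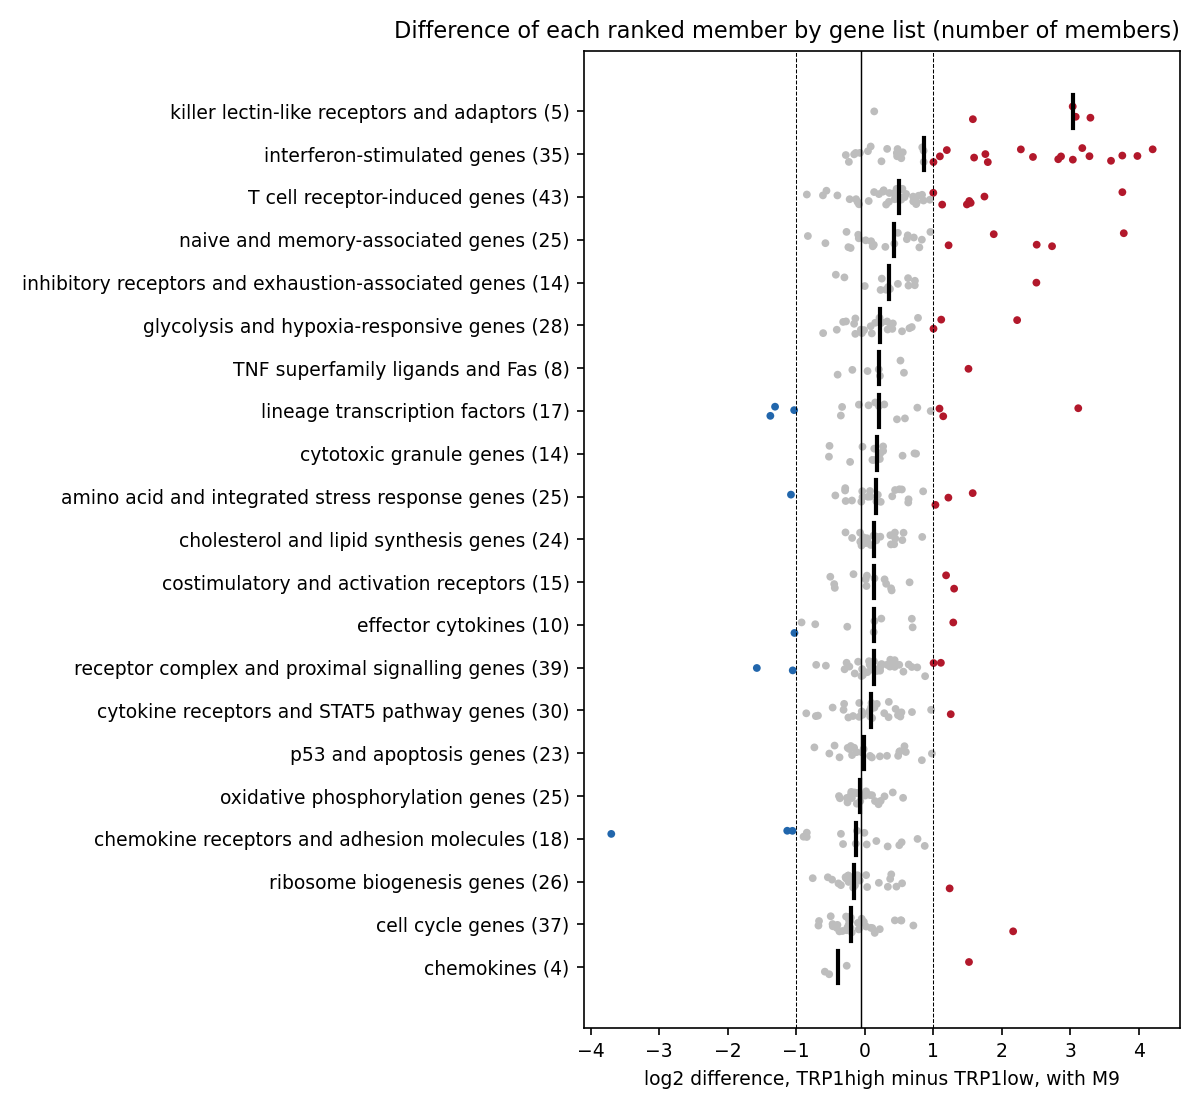
Log2 difference, TRP1high minus TRP1low with M9, of every ranked member of the 21 gene lists, 1 point a gene, red and blue from 2-fold. The short black bars are list medians, the thin vertical line is the median of all ranked genes (-0.06) and the dashed lines are 2-fold; killer lectin-like receptors (3.04), interferon-stimulated genes (0.86) and TCR-induced genes (0.50) had the highest medians.

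The largest differences were in genes with few or no reads in 1 library, and several have near-identical copies among which reads can be split. Gbp2b (chr3:142594847-142619179, GRCm38), a guanylate-binding GTPase with close relatives beside it, had 3.96 normalized counts in TRP1high and 3787 in TRP1low with M9, 957-fold lower in TRP1high (373 to 3514). Eno1b, a copy of the enolase gene Eno1, stood at 93.0 and 33758 (363-fold, 296 to 449), while Eno1 itself was higher, at 138713 and 63828 (2.17-fold). The direction of Gbp2b and Eno1b was the same with K8 (-5.90 and -6.87). Exosc6, an RNA exosome subunit, had 0 and 321 normalized counts, at least 108-fold lower, and Tnfrsf11b, the decoy receptor osteoprotegerin, 0 and 120, at least 40.3-fold lower. With K8 they differed by -0.80 and -0.20.

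Single genes lower in TRP1high at higher levels were Ctse, the protease cathepsin E (102 against 1737, 17.1-fold), Wls, which carries Wnt proteins to the surface (229 against 1633, 7.12-fold), and Wdfy4, known for cross-presentation in dendritic cells (4.84 against 412). Ctse and Wls differed alike with K8 (-3.91 and -2.55). The gene models Gm20390, Gm3550, Gm9008, Gm15487 and Gm14419 were also among the 20 lowest, and their products are not described here. So were Gdpd3, a phosphodiesterase (1.46 against 466), Cnga1, a cyclic nucleotide-gated channel (2.91 against 134), Arhgef5, Sugct, Lhfpl4 and Park2.

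At the other end, the cardiac myosin heavy chain genes Myh7 (144 normalized counts in TRP1high with M9) and Myh6 (136) were at 0 in TRP1low with both peptides, at least 45.7-fold and 43.1-fold higher in TRP1high with M9. They are near-identical neighbours on chromosome 14, within 5 Mb of the receptor alpha constant gene Trac. In that stretch 77 genes were ranked, and 3 were higher and 3 lower in TRP1high, against 5.35% and 2.76% of all ranked genes. The non-muscle myosins Myh9 (16442 against 2519, 6.53-fold) and Myh10 (797 against 282, 2.83-fold) were higher too. The unconventional myosin Myo1e stood at 433 and 28.3 (15.3-fold).

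Other genes among the 20 highest were Abcb1a, a drug efflux pump (946 against 54.6, 17.3-fold), Fgf2, a fibroblast growth factor (714 against 41.9, 17.0-fold), Grb10, a signalling adaptor (124 against 5.04), and S100a6, a calcium-binding protein (156 against 4.29). Impg2, a proteoglycan of the retina, was at 117 and 0.406, at least 37.1-fold higher, Crmp1, known from neurons, at 165 and 9.88, and Cnih3 at 176 and 15.1. The Abcb1a difference was 0.21 with K8, and that of Fgf2 was 1.16.

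The constant genes of receptor chains themselves differed. Trbc1, a beta chain constant gene, had 3395 normalized counts in TRP1high and 32876 in TRP1low with M9 (9.68-fold lower), and differed by -3.98 with K8. The gamma chain constant genes Tcrg-C4 (227 against 2.10) and Tcrg-C1 (105 against 2.10) were higher in TRP1high with both peptides. Trdc, the delta chain constant gene, was at 464 and 795, and Trac, the alpha chain constant gene, at 17260 and 9306, both within 2-fold. The beta and gamma chain constant genes have near copies within their clusters, so the split of reads among those copies is uncertain.

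Among the genes that reached 10000 normalized counts in TRP1high or TRP1low, those most apart upward were Myh9, Tmsb10, an actin-binding thymosin (46311 against 16384, 2.83-fold), Vim, the intermediate filament vimentin (12202 against 4424, 2.76-fold), Tnfrsf4, Rpl34, Nolc1, Ly6a, Gnas, Eif5b and Tnfrsf9. Downward, 5 of the 10 were encoded by mitochondrial DNA. All 13 mitochondrially encoded mRNAs were lower in TRP1high with M9, with a median of -0.81 beside -0.06 over all ranked genes. At least 2-fold lower were 5 of the 13, against 2.76% of all ranked genes. Together the 13 made up 4.33% of normalized counts in TRP1high and 7.47% in TRP1low. mt-Atp6 stood at 126645 and 373942 and mt-Nd3 at 7059 and 21409. Their transcripts are poor in GC, and after the GC correction mt-Nd1, mt-Co3 and mt-Atp8 were within 2-fold (-0.89, -0.81 and -0.77). In the K8 pair the median of the 13 was -0.35, with 0 higher and 0 lower by 2-fold. There mt-Co1 (0.01), mt-Co2 (0.47) and mt-Nd3 (0.22) were above 0.

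Replication-dependent histone genes, which package newly copied DNA, were a second group on the lower side. Of 64 genes in the files 29 were ranked, with a median of -0.96. With M9, 13 of them were at least 2-fold lower in TRP1high (against 2.76% of all ranked genes) and 0 higher (against 5.35%). Among the lower genes, Hist1h1a, Hist1h2ah, Hist1h2bg, Hist1h3a and Hist1h3e reached the level limit only in TRP1low. The limit thus kept them through the library where they were high. Hist1h3h stood at 226 and 707, Hist1h3a at 93.0 and 360 and Hist1h2ai at 220 and 537. In the K8 pair the median was -0.35, with 3 higher and 2 lower. These genes and the mitochondrial list were listed after their values had been seen, and the histone genes are near copies of each other.

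The K8 libraries allow the same subtraction on separate libraries, and the values are given side by side. Over the 9772 genes ranked with M9, 1339 (13.7%) were 2-fold apart with K8, 920 (9.41%) higher in TRP1high and 419 (4.29%) lower. Of the genes higher with M9, 307 (58.7%) were also higher with K8, which is 33.4% of those higher with K8. Of the genes lower with M9, 113 (41.9%) were also lower with K8, 27.0% of those lower there. Another 24 genes were 2-fold higher with M9 and 2-fold lower with K8, and 19 the reverse. Across genes the differences correlated at 0.57 (Pearson) and 0.58 (Spearman), a description over genes that share libraries and are not replicates.

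Genes with opposite differences included Lgals3, the lectin galectin-3, at 132 in TRP1high and 12.5 in TRP1low with M9 but 48.5 and 1059 with K8. Zbtb38, a repressor that binds methylated DNA, was at 286 and 1245 with M9 and at 591 and 51.6 with K8. Il3 was at 166 and 67.1 with M9 and at 0 and 19.2 with K8. Atf3 was higher in TRP1high with both peptides, by 1.58 with M9 and 6.03 with K8, as was Igfbp4, by 2.74 and 4.82. The difference between the peptides in any of these genes was not tested.

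**Figure D4:**
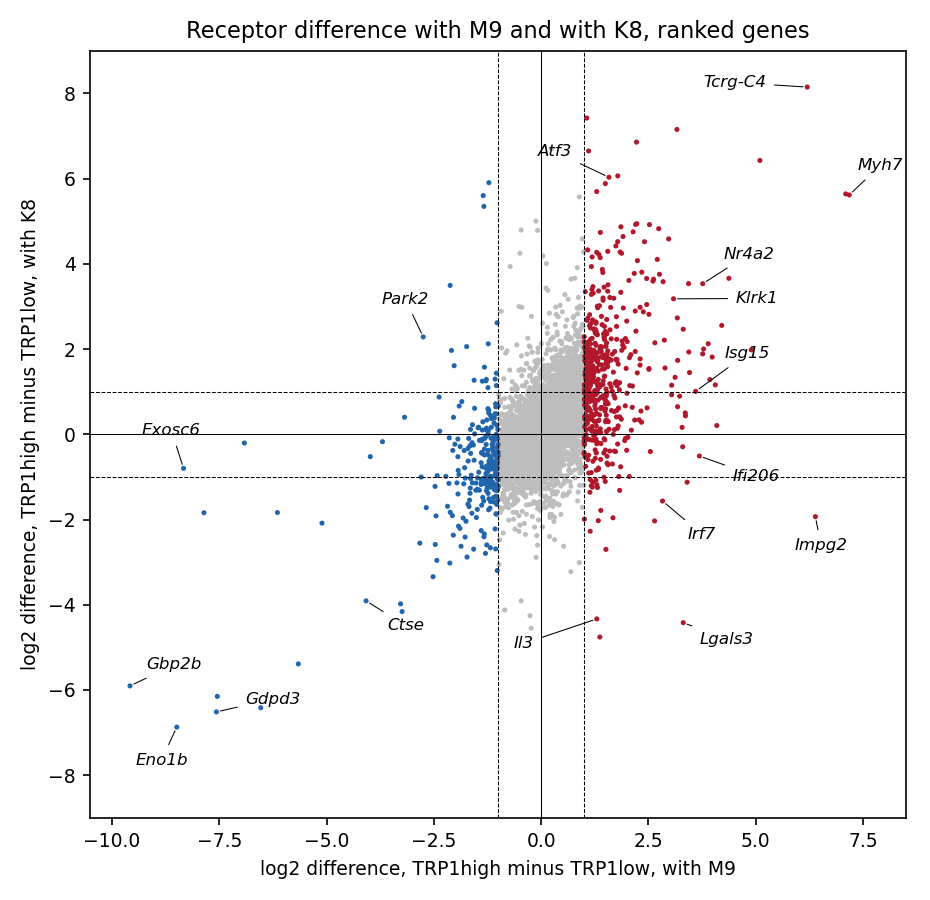
Log2 difference TRP1high minus TRP1low of each ranked gene with M9 (x axis) and with K8 (y axis); the pairs share no library. Colours are those of the M9 pair, dashed lines are 2-fold, and 307 red genes lie above the upper line while 24 lie below the lower one.

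The difference with M9 followed the base composition of the transcripts. From the eighth of genes with the lowest GC content to the eighth with the highest, the median difference went from -0.25 to 0.15, the share 2-fold higher in TRP1high from 2.82% to 10.3%, and the share lower from 4.72% to 2.40%. The Spearman correlation across the 9651 genes with a transcript in the annotation was 0.28, and that with transcript length was 0.08. With K8 the medians ran from -0.31 to 0.27. After each difference was taken relative to genes of like GC content, 526 genes were higher and 221 lower, the median of the interferon-stimulated genes was 1.07, that of the killer lectin-like receptors 3.29 and that of the TCR-induced genes 0.43. The part that GC content had in the differences of single genes was not tested otherwise.

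**Figure D5:**
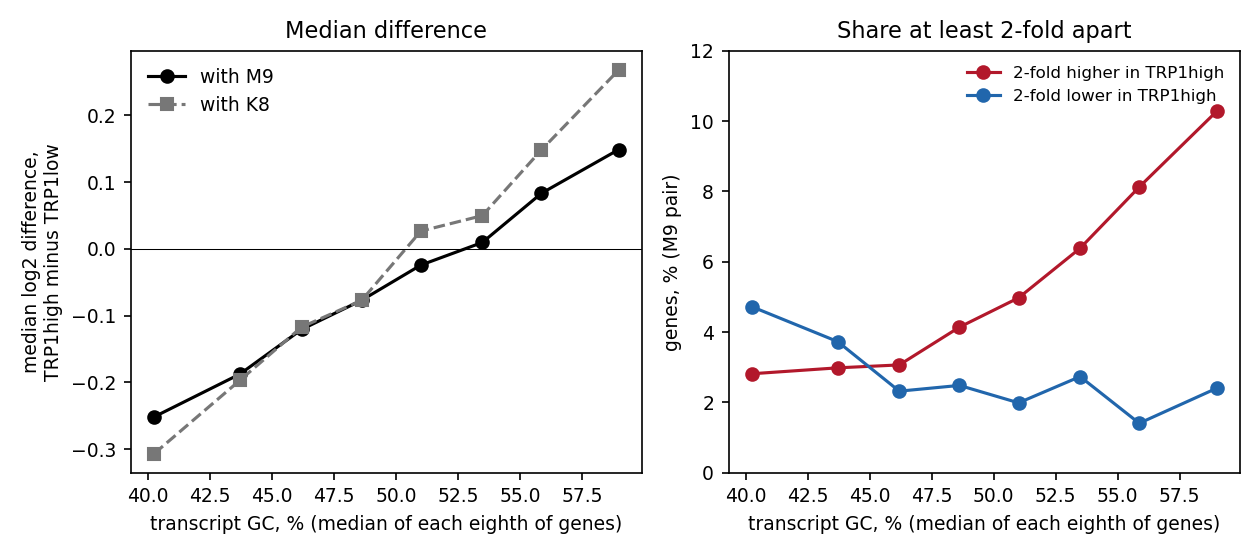
Left: median log2 difference, TRP1high minus TRP1low, in each eighth of ranked genes by GC content of their transcripts, with M9 (circles) and K8 (squares). Right: share of genes at least 2-fold higher (red) and lower (blue) in TRP1high with M9 in the same eighths, from 2.82% to 10.3% for the higher genes.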

How the data were processed

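RNA sequencing of sorted mouse T cells was analysed for the M9 pair, 1 library a group, with the K8 pair beside it. The authors deposited log2 normalized counts, per the file headers, 1 value per gene symbol and library. The submitters' processing notes list the mouse build mm10, Salmon 0.8.2 and DESeq2 1.20.0 without a setting for any of them. Undoing the logarithm and taking away 1 gave normalized counts, and the step between low values gave the worth of 1 read. Estimated reads were rounded to whole reads only for 95% exact (Clopper-Pearson) intervals of ratios, which cover counting error only since reads carry no molecular identifiers. A library at 0 was set to a floor of 3 reads, which gives the lower bounds. With 1 library a side no test across genes was run, and the difference script was tested on simulated data.

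Genes had to reach 100 normalized counts in 1 of the 2 libraries. Fold limits are on the log2(value + 1) scale, while printed folds are ratios without the 1. Gene types, positions, transcript GC content and length came from GENCODE M21 (GRCm38), where 103 ranked rows had no symbol. The members, the 21 gene lists and the 8 marker lists were chosen with earlier results of these data known. By rule the text names the 20 genes furthest apart in each direction, the 10 furthest among genes at 10000 or more normalized counts, and in each list up to 6 members 2-fold apart in each direction, the most abundant member and up to 3 level ones. This gave 172 genes, and 64 more were named after their values were seen, as were 6 added families. Alternatives changed the level limit, the added constant, the scaling and the gene set, and a GC correction in 20 bins was added after seeing the data. Scripts used Python 3.11.15, pandas 2.3.3, numpy 2.4.6 and scipy 1.17.1. Some items that the naming rule would take are not reported here.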

Additional observations from a re-analysis of the deposited data

Results flagged for a closer look

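Several named genes differed between the receptors one way with M9 and the opposite way with K8, by at least 2-fold in each pair. The difference between the pairs was not tested, since each group is 1 library. Higher in TRP1high with M9 and lower with K8 were Lgals3 (3.31 with M9, -4.42 with K8, both on the log2 scale), Irf7 (2.83 and -1.57), Il3 (1.30 and -4.33) and Ddx58 (1.20 and -1.12). So were 4 genes of the IFI200 family: Ifi211 (3.40 and -1.12), Ifi213 (2.64 and -2.03), Ifi208 (1.83 and -1.32) and Ifi214 (1.67 and -1.96). Impg2 was flagged too (6.39 and -1.93), but with K8 it had 0 normalized counts in TRP1high and 2.82 in TRP1low. Both lay within the floor of 3 reads, so its direction with K8 is not known. Lower with M9 and higher with K8 were Park2 (-2.75 and 2.28) and Zbtb38 (-2.12 and 3.49).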

How the results depend on the processing

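No paired analysis was possible because each group is 1 library. Without a minimum level, 1460 genes were 2-fold higher and 1042 lower, against 523 and 270. With a minimum of 30 normalized counts 747 were higher and 440 lower, and with a minimum of 300 there were 378 and 161. Under the other alternatives the counts stayed within 1.5 times, from 442 (30 added to each count) to 582 (centred) for higher genes and from 205 (30 added) to 345 (receptor segments and pseudogenes kept) for lower genes. The share of called genes that were higher, 66.0%, ran from 58.4% with no minimum to 71.9% after centring. No named gene changed direction past 2-fold. Of the 124 named genes past 2-fold, 2 to 7 were lost by adding 10 or 30 to each count, 3 to 5 by another scaling and 10 by the GC correction, among them Ifng, Ikzf2, Aim2, Themis and Runx3. Scaling moved all differences by 0.04 to 0.06. Genes near 0 in 1 library are limited by depth, so their folds are bounds or wide intervals.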

Other observations

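The following values were not part of the comparison above and carry no explanation. Genes of the Y chromosome were present in both libraries with M9, with Eif2s3y at 3355 normalized counts in TRP1high and 3333 in TRP1low. Around the gamma chain gene Tcrg-C1 on chromosome 13, 47 genes within 5 Mb were ranked, and 15 of them were at least 2-fold lower in TRP1high, most of them histone genes of the Hist1 cluster. Some of those histone genes reached the level limit only in TRP1low. Around Trbc1 on chromosome 6, 28 were ranked, with 1 higher and 2 lower. Over all ranked genes 5.35% were higher and 2.76% lower. Erythroid transcripts were near 0 with M9 in both libraries, with summed levels of 9.46 and 3.62, while the TRP1low library with K8 held 609.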
